A study of Mus musculus with 7 samples.

Results

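In primary dermal fibroblasts 2565 H3K27ac peaks were called that lay away from promoters and had no counterpart in any of 4 chondrocyte peak lists. They are called fibroblast-only distal peaks here. They were chosen by where peaks were and were not called: a peak of the fibroblast H3K27ac list on chromosomes 1 to 19 or X (mouse build mm9) that shared no base with a peak of chondrocyte H3K27ac replicate 1, chondrocyte H3K4me2, WT H3K27ac or deletion H3K27ac, and that had no transcription start site (TSS) of a protein-coding gene within 1 kb. Peaks within 100 kb of the first assembled base of a chromosome and at 98 to 99 Mb of chromosome 2 were left out, which removed 23 peaks, of which 4 otherwise met the rule. Of 19454 fibroblast peaks on these chromosomes, 9362 reached a TSS and 10069 were distal. The 2565 peaks were 25.5% of the distal ones (95% interval 24.6% to 26.3%), 1482 distal peaks (14.7%) overlapped chondrocyte H3K4me2 only, and 6022 (59.8%) overlapped a chondrocyte H3K27ac peak and are called shared. Because the rule used peak overlap, the absence of chondrocyte peaks from these regions is no finding.

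The study asked which enhancers act on Sox9 in chondrocytes, and fibroblasts served as its negative control. Chondrocytes were primary cells from the rib cartilage of newborn mice, used within 2 passages, and fibroblasts were primary cells grown from the dorsal skin of newborn mice. The WT and deletion lists came from rib chondrocytes of wild-type mice and of E160(delta/delta);E308(delta/delta) mice, which lack both copies of 2 Sox9 enhancers and were made by CRISPR editing of C57BL/6J embryos. The first chondrocyte, H3K4me2 and fibroblast libraries carry no genotype in their labels. An input library of rib chondrocytes was not analysed here. Every list came from 1 library and the fibroblasts had only 1, so no difference between cell types had a replicate check on the fibroblast side, and every interval printed here covers counting error only. The lists hold no read counts and the depth is unknown. A peak that is missing from a list may lie just under that list's threshold.

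H3K27ac is acetylation of lysine 27 of histone H3, a mark of active promoters and enhancers. H3K4me2, dimethylation of lysine 4 of the same histone, marks promoters and enhancers too, including enhancers that are accessible without being acetylated. Distal acetylated regions vary more between cell types than promoters do, and a gene of a lineage is often flanked by several of them. Dermal fibroblasts make the collagens, proteoglycans and elastic fibre proteins of the skin and respond to Wnt, FGF, PDGF and TGF-beta signals.

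The label of the fibroblast library was checked at promoters of marker genes. A fibroblast peak lay within 1 kb of the TSS for 8 of 12 dermal fibroblast markers (Dcn, Dpt, Fbln1, Lum, Pdgfra, Tbx15, Tbx18 and Twist2) and for 1 of 11 chondrocyte markers (Sox9), while 9 of those 11 chondrocyte markers had one in the WT list and 6 in chondrocyte replicate 1, where Sox9 had none. The other dermal markers, Prrx1, Col1a1, Col1a2 and Col3a1, had no fibroblast promoter peak. Col1a1, a fibroblast marker in the study, and Col3a1 had one in chondrocyte replicate 1, WT and deletion. The dermal fibroblast markers thus did not part the cell types as the chondrocyte markers did. Of the 12, 9 had a promoter peak in the WT chondrocyte list and 5 in chondrocyte replicate 1. No promoter peak was found at 6 keratinocyte, 2 immune or 4 skeletal muscle markers, and 1 of 4 endothelial (Tek) and 1 of 4 melanocyte and Schwann cell markers (Mitf) had one. Whether a few cells of these types were in the culture was not tested.

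The sequences of 6 of the peaks are shown because the results turn on them: the peak of highest score, the highest-scoring peaks that hold an AP-1 motif (Sept8) and a CATATG motif (Ebf1), and the highest-scoring peak nearest to each of Maf, Zfp36l1 and Col3a1. Each is the mm9 plus strand, 5′ to 3′, whole where the peak was shorter than 300 bases and otherwise its central 300 bases, and capitals mark matches on either strand to any of 16 short motifs given with the motif results.
Pak3 peak, chrX:139917476-139917726, plus strand: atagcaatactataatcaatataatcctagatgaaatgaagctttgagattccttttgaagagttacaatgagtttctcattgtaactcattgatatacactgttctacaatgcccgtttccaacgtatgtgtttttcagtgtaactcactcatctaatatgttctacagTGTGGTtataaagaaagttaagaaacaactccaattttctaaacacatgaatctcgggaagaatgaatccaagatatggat
Sept8 peak, chr11:53321556-53321855, plus strand: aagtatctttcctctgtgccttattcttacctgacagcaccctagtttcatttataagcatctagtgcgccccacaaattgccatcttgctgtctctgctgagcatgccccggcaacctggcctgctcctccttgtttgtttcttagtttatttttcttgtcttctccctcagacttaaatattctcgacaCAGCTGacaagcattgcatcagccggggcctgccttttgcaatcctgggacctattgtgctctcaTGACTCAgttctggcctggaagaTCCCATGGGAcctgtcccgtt
Ebf1 peak, chr11:44988688-44988987, plus strand: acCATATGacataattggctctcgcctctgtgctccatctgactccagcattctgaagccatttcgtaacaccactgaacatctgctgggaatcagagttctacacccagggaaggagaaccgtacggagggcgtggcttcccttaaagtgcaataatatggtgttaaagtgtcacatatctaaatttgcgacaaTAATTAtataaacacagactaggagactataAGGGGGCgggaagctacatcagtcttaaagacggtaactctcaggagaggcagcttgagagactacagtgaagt
Maf peak, chr8:118453776-118454075, plus strand: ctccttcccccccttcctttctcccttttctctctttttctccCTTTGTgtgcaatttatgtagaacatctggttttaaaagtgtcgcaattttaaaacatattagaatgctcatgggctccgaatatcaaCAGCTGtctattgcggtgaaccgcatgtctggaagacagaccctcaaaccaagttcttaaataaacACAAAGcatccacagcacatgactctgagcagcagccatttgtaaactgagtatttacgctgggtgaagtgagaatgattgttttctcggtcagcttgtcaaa
Zfp36l1 peak, chr12:80939295-80939594, plus strand: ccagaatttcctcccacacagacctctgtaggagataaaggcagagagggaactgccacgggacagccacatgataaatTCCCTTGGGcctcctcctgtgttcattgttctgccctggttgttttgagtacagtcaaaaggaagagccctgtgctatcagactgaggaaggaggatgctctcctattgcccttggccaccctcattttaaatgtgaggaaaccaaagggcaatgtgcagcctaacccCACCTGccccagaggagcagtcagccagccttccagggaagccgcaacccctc
Col3a1 peak, chr1:45298795-45299094, plus strand: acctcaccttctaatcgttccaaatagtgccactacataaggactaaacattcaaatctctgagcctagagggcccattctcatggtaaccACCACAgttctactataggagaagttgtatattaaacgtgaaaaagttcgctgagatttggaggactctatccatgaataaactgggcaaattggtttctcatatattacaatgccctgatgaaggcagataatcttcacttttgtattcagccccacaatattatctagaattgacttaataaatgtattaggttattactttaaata
The Pak3 and Col3a1 sequences held 1 match each, both to the Runx motif, and were AT-rich, with 32.3% G and C in the former. The Maf sequence held 1 E-box between 2 Sox motifs, and the Zfp36l1 sequence an EBF motif and 1 E-box. The Ebf1 sequence held the E-box CATATG, a homeodomain motif and part of the CTCF motif. The Sept8 sequence held an E-box, an AP-1 motif and a pair of EBF matches that overlap on opposite strands.

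Fibroblast-only distal peaks ranked low in the fibroblast list. The peak caller's score ranks peaks only within a list, and the rule chose peaks from this list, so these values are a description. Scores of the 2565 peaks ran from 50.01 to 889, in a list whose lowest score was 50, with a median of 63.2. The median peak stood at the top 80.1% of the list (interval 79.2% to 80.8%), compared with 75.5% for the H3K4me2-overlapping peaks and 58.1% for shared peaks. Only 1 fibroblast-only peak was among the top 10% of the list, 13 were in the top 25% and 174 (6.78%) in the upper 50%.

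When the 10069 distal peaks were split by score into 10 bins of equal size, fibroblast-only peaks made up 1.99% of the highest bin (20 of 1006), 8.74% of bin 2 and 25.4% of bin 5. In bins 6 to 10 they made up 33.3% to 42.0%. Shared peaks went the other way, from 96.3% of the highest bin to 41.3% of the lowest. The H3K4me2-overlapping peaks stayed between 15.4% and 20.2% from bin 4 on. At promoters 44 of 9362 fibroblast peaks (0.470%) overlapped none of the 4 lists.

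**Figure D1:**
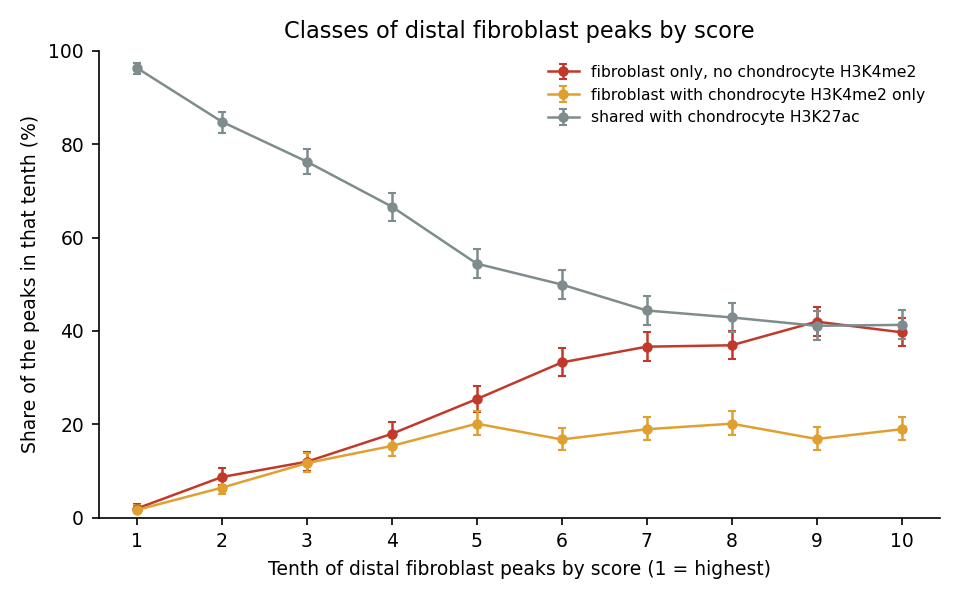
Share of each of 10 equal bins of the 10069 distal fibroblast peaks, ordered by score with the highest bin first, taken by fibroblast-only peaks, peaks that overlapped chondrocyte H3K4me2 only and shared peaks; points are percentages and bars are exact binomial 95% intervals. Fibroblast-only peaks rise from 1.99% of the highest bin to 39.7% of the lowest, where shared peaks fall to 41.3%.

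The 10 highest-scoring peaks were of mixed shape. The highest lay 35.5 kb upstream of Pak3, a p21-activated kinase gene best known in neurons, at chrX:139917476-139917726. Its score of 889 put it at the top 0.0257% of the list, yet it was only 251 bp wide, and every 50-base window read from it occurred once in mm9. The next was 2739 bp wide with a score of 297, 29.8 kb downstream of Klrb1-ps1, a lectin-like receptor pseudogene. Those near Cd209f (241), Sept8, a septin gene (241), and Twist2 (226) followed, then 1 in an intron of Il1r2, the decoy receptor of interleukin 1 (226).

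The seventh, upstream of Gramd3 on chromosome 18 with a score of 224, was 158 bp wide, and 63.6% of its 50-base windows were repeated in mm9, with a median of 254 copies. The others lay upstream of BC018507 (224), in a non-coding exon of Trp73 with Ccdc27 as the nearest TSS (219), and 10.4 kb upstream of Anpep, the surface aminopeptidase CD13 (218). The median width of all 2565 peaks was 495 bp, compared with 543 bp for H3K4me2-overlapping and 930 bp for shared peaks. When the fibroblast-only peaks were split by score into 4 bins of equal size, it was 777 bp in the highest-scoring bin (interval 735 to 831) and 434 bp in the lowest (interval 428 to 442).

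The values closest to the thresholds of the rule are given as a description. The fibroblast-only peak closest to a TSS was 1066 bp from Olfr433, and the otherwise fitting peak just outside was 963 bp from a TSS. The smallest gap to a chondrocyte peak was 0 bp (nearest gene 2610203C20Rik), and the smallest overlap that kept a peak out was 1 bp (nearest gene Habp2). Gaps under 50 bp were found for 33 fibroblast-only peaks, and 37 distal peaks were kept out by overlaps under 50 bp.

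Most of the peaks had a chondrocyte peak in the neighbourhood. The median gap to the nearest peak of the 4 lists was 7.48 kb (interval 7.08 to 7.93). A chondrocyte peak lay within 1 kb of 346 of them (13.5%), within 10 kb of 1526 (59.5%) and within 50 kb of 2378 (92.7%). The share with a chondrocyte peak within 10 kb was 56.8% in the highest-scoring of the 4 bins (interval 52.8% to 60.7%) and 63.6% in the lowest (interval 59.7% to 67.3%), intervals that overlap.

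The chondrocyte H3K27ac replicate 2 list was not used by the rule. It is the same mark in the same cell type as lists that defined the classes, so a contrast between fibroblast-only and shared peaks is partly built in. How many peaks would match by accident was not computed. Its coordinates were those of GRCm38: 43.1% of 18089 promoters placed in both annotations were marked when GRCm38 positions were used and 6.24% with mm9 positions. No coordinate was converted. Positions were expressed as the signed distance from a TSS, and a peak up to 100 kb away from a gene counted as matched when that gene had a replicate 2 peak at this distance, give or take 1 kb. Only 19 of 1608 fibroblast-only peaks matched (1.18%, interval 0.713% to 1.84%), compared with 39 of 1006 H3K4me2-overlapping peaks (3.88%) and 2379 of 4597 shared peaks (51.8%). Distal peaks of chondrocyte replicate 1 that had no fibroblast peak (chondrocyte-only, 11209 in all) matched in 35.6%, and fibroblast promoter peaks in 82.1%.

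The 19 matched peaks were spread over the score range. The highest, near Slc27a1, a fatty acid transporter gene, scored 200, and the lowest, near Kazn, scored 50.7. A peak of the 4 lists lay within 2 kb of 12 of the 19. In the highest-scoring of the 4 bins 2.28% matched (interval 1.05% to 4.29%), and in the other 3 the lowest share was 0.504% (interval 0.0611% to 1.81%), intervals that overlap. Slc27a1 and Kazn were chosen after their values were seen.

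**Figure D2:**
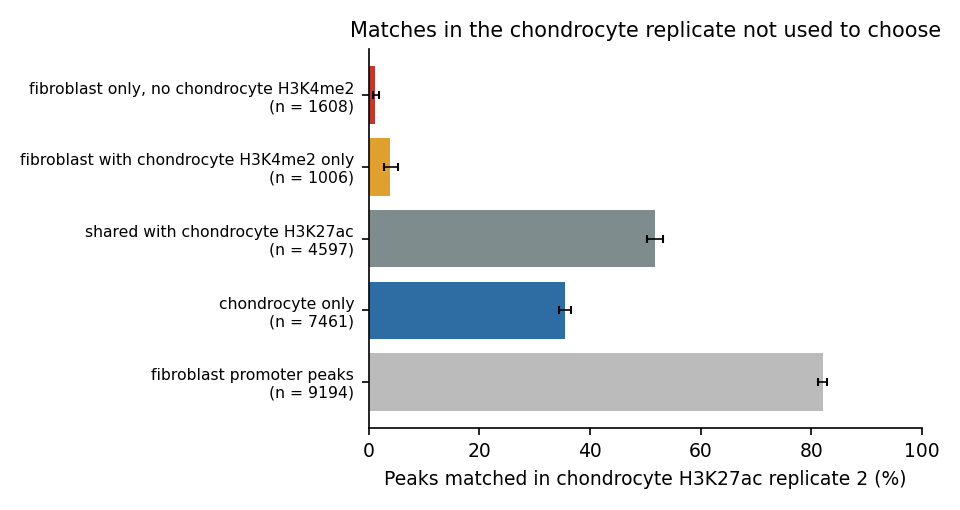
Percentage of peaks of each class with a peak of chondrocyte H3K27ac replicate 2 at the same distance from the same TSS within 1 kb; bars are percentages, lines exact binomial 95% intervals, and n counts the peaks within 100 kb of a TSS. Fibroblast-only peaks match in 1.18% and shared peaks in 51.8%.

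The median distance from the peak midpoint to the nearest protein-coding TSS was 52.1 kb (interval 48.8 to 55.7), compared with 45.1 kb (41.8 to 50.4) for H3K4me2-overlapping, 33.6 kb (32.3 to 35.0) for shared and 46.0 kb (44.4 to 47.4) for chondrocyte-only peaks. With the TSS of every annotated gene used for the distance, protein-coding or not, the median over the same fibroblast-only peaks was 31.8 kb. More than 100 kb separated 31.9% of them from any protein-coding TSS, which was 12.1 percentage points more than for shared peaks (Newcombe 95% interval 10.04 to 14.2) and 3.57 points more than for chondrocyte-only peaks (interval 1.61 to 5.58). Over the 4 bins of score the medians ran from 50.4 kb (44.4 to 55.5) to 56.0 kb (47.5 to 62.3), and their intervals overlapped.

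In the gene annotation 1380 of the peaks (53.8%) were intergenic, 1096 (42.7%) intronic, 40 (1.56%) in coding exons and 49 (1.91%) in other exon sequence. The intergenic share was 6.44 points above that of shared peaks (interval 4.13 to 8.74) and 9.71 points above that of chondrocyte-only peaks (interval 7.57 to 11.8). It differed from H3K4me2-overlapping peaks by -0.180 points, with an interval of -3.36 to 3.01. Of 1185 peaks inside a gene body, 401 lay in a gene other than the one with the nearest TSS, so the nearest gene is a label of position and no statement of control.

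**Figure D3:**
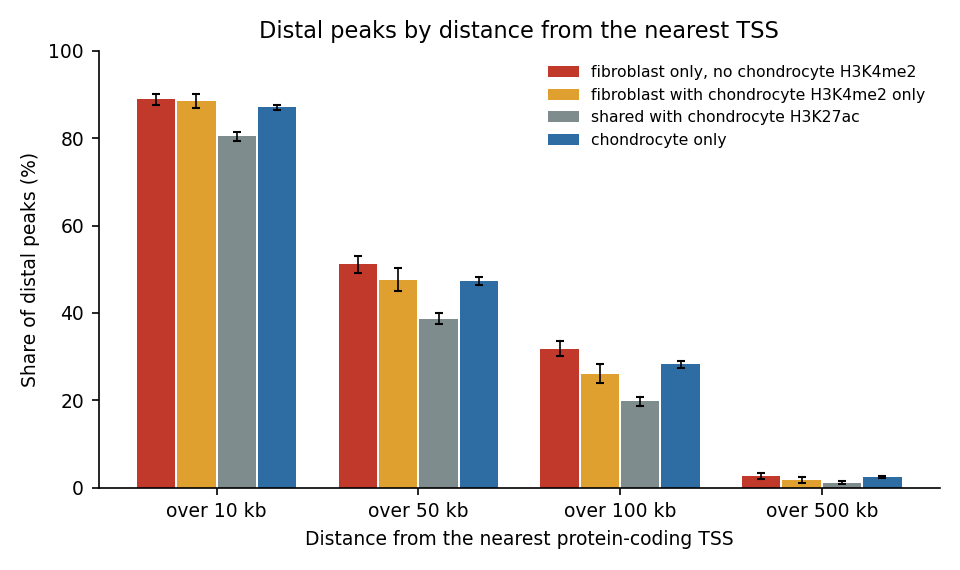
Percentage of distal peaks of each class that lay more than 10, 50, 100 and 500 kb from the nearest protein-coding TSS; bars are percentages and lines exact binomial 95% intervals. Beyond 100 kb the share is 31.9% for fibroblast-only and 19.8% for shared peaks.

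For 36.6% of fibroblast-only peaks (interval 34.8% to 38.5%) the nearest other distal fibroblast peak was also fibroblast-only, while 25.5% of all distal peaks were. The share was 28.3% for H3K4me2-overlapping peaks and 18.9% for shared peaks, 17.7 points lower than for the fibroblast-only peaks (interval 15.6 to 19.9). Each class had its own kind as nearest neighbour more often than its share of distal peaks: 24.0% against 14.7% for H3K4me2-overlapping peaks and 70.2% against 59.8% for shared peaks. Among the 174 fibroblast-only peaks in the upper 50% of the list the share was 10.3% (interval 6.25% to 15.9%), which holds the 6.52% of distal peaks there. The typical spacing was wide, with a median of 31.5 kb to the nearest distal fibroblast peak, compared with 21.9 kb for shared peaks.

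When peaks whose midpoints were at most 50 kb apart were joined, 809 (31.5%) fell in 356 groups of at least 2, and 245 (9.55%) in 74 groups of at least 3. There were 18 groups of at least 4, and the largest, 5 in number, held 5 peaks each. Among the 174 peaks in the upper 50% of the list, 8 fell in groups and no group held 3 or more. Peaks in groups of at least 3 were wider than lone peaks, with a median of 667 bp (interval 608 to 724) against 469 bp (459 to 479), and farther from a TSS, 77.1 kb (66.6 to 93.1) against 50.04 kb (46.7 to 54.0). Their median score was 67.5 (interval 63.95 to 69.8), against 62.8 (interval 62.0 to 63.8) for lone peaks.

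Of the 5 groups of 5 peaks, the one of highest summed score spanned 77.1 kb upstream of Maf, a bZIP transcription factor gene, at chr8:118382502-118459637, with scores of 60.2 to 177. No shared or H3K4me2-overlapping peak lay among its 5 peaks, and 2 chondrocyte-only peaks did. A second spanned 99.1 kb within introns of Bre, a gene of a deubiquitinase complex, with scores of 62.4 to 181. The third, on chromosome 12 with Zfp36l1 as the nearest gene, packed 5 peaks into 28.7 kb and held no shared, H3K4me2-overlapping or chondrocyte-only peak. The fourth spanned 134 kb, with 3 peaks nearest to Thbs2, which encodes the matrix glycoprotein thrombospondin 2, and 2 nearest to the gene model Gm3222, and also held 4 shared peaks. The fifth, upstream of Habp2, a hyaluronan-binding protease gene, also held 2 shared peaks.

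Of the groups of 4 with the highest summed scores, 1 lay upstream of BC018507 and partly in introns of Adamts16, a secreted metalloprotease gene, and reached a score of 224. Another lay on both sides of the TSS of Jak1, the cytokine receptor kinase, with scores of 50.9 to 165. The eighth lay upstream of Tln2, which encodes the integrin-linking protein talin 2, with scores of 61.0 to 155.

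The 2565 peaks had 1894 nearest genes, 8.47% of 22350 protein-coding genes. Of these, 1462 had 1 peak, 432 had at least 2, 58 had at least 4 and 26 had at least 5. Genes with wide surroundings catch more peaks. The values are therefore also given per Mb of territory, the stretch bounded on either side by the midpoint to the neighbouring TSS, over which fibroblast-only peaks averaged 0.995 per Mb.

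Zfp36l1, which encodes a protein that destabilises AU-rich mRNAs, had the most, with 10 peaks or 20.8 per Mb. They lay 187 to 387 kb downstream with scores of 57.1 to 130, and 4 of them were in introns of Rad51l1, a DNA repair gene that itself had 5. The 15 peaks of the pair spanned 627 kb, 9 of them in Rad51l1 introns. Both promoters carried a fibroblast peak, and both had one in all 4 chondrocyte mm9 lists. In the territory of each, 8 shared peaks were called.

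Col3a1, the gene of type III collagen of skin and vessels, had 9 peaks, or 18.9 per Mb. From the farthest upstream to the farthest downstream their scores were 55.4, 70.8, 82.8, 76.1, 95.9, 55.9, 54.2, 69.1 and 58.0. The first 8 lay 353 to 14.7 kb upstream in intergenic DNA, and the last lay 68.7 kb downstream in a coding exon of Col5a2, a type V collagen gene. Of the 9, 2 were within 0.3 kb of a WT peak, at gaps of 0.199 and 0.216 kb. Nearest to this gene were also 2 shared, 1 H3K4me2-overlapping and 2 chondrocyte-only peaks, a class taken from replicate 1 alone. From 400 kb upstream to 120 kb downstream of its TSS the chondrocyte lists held 5 peaks in replicate 1, 9 in WT, 6 in deletion and 7 in H3K4me2. The Col3a1 promoter itself had no peak in the fibroblast list, but had one in chondrocyte replicates 1 and 2, WT and deletion.

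Twist2, a basic helix-loop-helix transcription factor of dermal fibroblasts, had 4 peaks, or 20.5 per Mb. Their scores were 77.1 at 104 kb upstream, 70.8 at 23.2 kb upstream, 62.5 at 36.5 kb downstream in an intron of Twist2, and 226 at 56.4 kb downstream. No shared or chondrocyte-only peak was nearest to Twist2, and the H3K4me2 list held 13 peaks within 150 kb of its TSS. The highest-scoring of the 4 was 1.12 kb from the closest of these. The Twist2 promoter had a peak in every list except chondrocyte replicate 1.

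**Figure D4:**
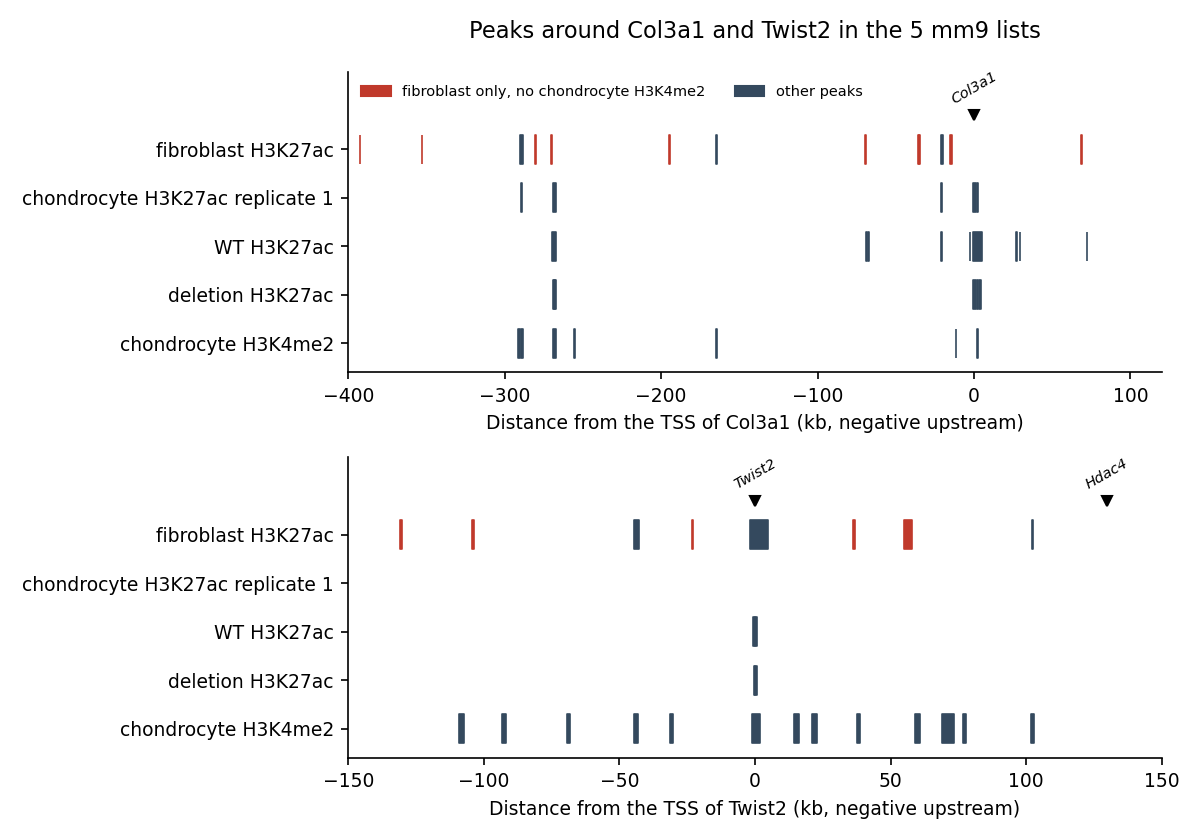
Peaks of the 5 mm9 lists around the TSS of Col3a1 (upper panel) and Twist2 (lower panel), with distance from the TSS in kb on the horizontal axis, 1 row for each list and arrowheads at annotated TSSs; fibroblast-only distal peaks are red. Around Col3a1 10 of 13 fibroblast peaks are red, and around Twist2 5 of 8, while no peak of chondrocyte replicate 1 is present there.

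Among the 26 genes with at least 5 peaks, Klf6, a zinc finger factor, had 8 peaks, 4 on each side, from 69.6 to 449 kb from its TSS with scores of 53.2 to 129. Klf4, of the same family, had 5, all upstream, and Irx1, an Iroquois homeobox gene, had 6 with scores of 50.6 to 108, of which 5 were downstream. Ebf1 had 5 peaks 237 to 558 kb downstream, the farthest of them the highest at 205, and Maf 5 peaks upstream. Runx1 had 5, at scores of 57.3 to 105, and Gli2, an effector of Hedgehog signalling, had 5 at scores of 50.9 to 70.1, of which 4 were in its own introns. The promoters of Klf6, Klf4, Ebf1, Maf, Runx1 and Gli2 had a peak in the fibroblast list and in each of the 4 chondrocyte mm9 lists, while Irx1 had a promoter peak in H3K4me2 only.

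Adamts5, an aggrecanase, had 7 peaks, all intergenic and upstream between 86.9 and 548 kb, with scores of 52.3 to 81.2. Hs6st1, a heparan sulfate sulfotransferase gene, had 6 upstream or downstream within 99.3 kb, and Habp2 6 upstream. Slit3, a secreted guidance ligand, had 5 with scores of 77.1 to 139.

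Dapk1, a death-associated protein kinase gene, had 5 upstream peaks with scores of 65.4 to 178. The rest of the 26 were Rad51l1 (5), Usp24, a deubiquitinase gene (6), Tln2 (5), Lnx1, a ubiquitin ligase gene (5), Prickle1 of planar cell polarity (5), Smyd3, a methyltransferase gene (5), Tars, a tRNA synthetase gene (5), Lrtm1 (5, all in introns of Cacna2d3), and the gene models Rpl28-ps4, Gm5670, Gm17582 and Gm10528. Among the 32 genes with 4 peaks, Mtx2 stands beside the HoxD cluster. Its 4 peaks, 69.0 to 329 kb downstream in intergenic DNA, scored 69.8, 216, 83.6 and 60.4 in order of distance, with 7 H3K4me2-overlapping peaks and no shared peak in the same territory.

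The nearest genes were then read against 13 lists of 298 genes, which had 130 of the peaks. Fibroblast matrix genes had the highest density: 19 of 36 had at least 1 fibroblast-only peak (52.8%), with 41 peaks or 5.98 per Mb (exact Poisson interval 4.29 to 8.11). Over all genes 8.47% had one, at 0.995 per Mb. The median territory was 129 kb in the matrix list and 47.7 kb over all genes, and wider territories catch more peaks. Shared peaks were dense around the matrix genes too, at 11.5 per Mb compared with 2.34 over all genes, and chondrocyte-only peaks stood at 9.48 compared with 4.35. Of the 19 matrix genes, 14 had a fibroblast promoter peak, as did 28 of all 36 in the list. A promoter peak in chondrocyte replicate 1 was found at 7 of the 19 and at 17 of the 36. After Col3a1 the most peaks were 3 each at Dcn (decorin; scores of 63.0, 87.2 and 109, all upstream), Thbs2 (57.3, 86.3 and 89.2, all downstream) and Col12a1 (51.6, 64.5 and 66.3), a fibril-associated collagen gene.

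Genes of dermal signalling followed with 16 of 30 placed gene models (53.3%) and 33 peaks, 3.53 per Mb (interval 2.43 to 4.96). Over all genes 8.47% had a fibroblast-only peak, with a median territory of 47.7 kb against 228 kb in this list. The other classes were dense here too. Chondrocyte-only peaks stood at 8.23 per Mb compared with 4.35 over all genes, and shared peaks at 3.96 compared with 2.34. Nrg1, a ligand of ErbB receptors, had 4 with scores of 64.7 to 148, and its promoter had a peak in the fibroblast, H3K4me2 and WT lists. Ror1, a Wnt5a receptor, had 3, Sfrp2, a secreted Wnt modulator, 3 upstream with scores of 69.0 to 89.3, and Igfbp3, which binds insulin-like growth factors, 3. The promoters of Sfrp2 and Igfbp3 had no H3K27ac peak in the replicate 1, WT or deletion lists.

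Mesenchymal transcription factors had 22 peaks at 12 of 48 placed gene models, or 1.21 per Mb (interval 0.758 to 1.83), an interval that holds the 0.995 of all genes. Ebf1, Twist2, Tshz3 (3) and Zeb2 (2) had the most. Chondrocyte-only peaks stood at 6.87 per Mb there. Genes of the fibroblast surface and contractile apparatus had 11 peaks at 8 of 25 genes, or 1.80 per Mb (interval 0.898 to 3.22): Lrig1 had 3, Cdh2 (N-cadherin) 2, and Dlk1 and Cd34 1 each. No peak was nearest to a Hox gene. A count of 0 of 2565 allows a share of up to 0.117%, an approximate limit taken as 3 counts over the 2565 peaks. The Hox genes had a territory of only 0.696 Mb, with 7 shared peaks.

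The 26 genes of the chondrocyte list had 3 fibroblast-only peaks, 0.633 per Mb (interval 0.131 to 1.85, which includes the 0.995 of all genes), and 100 chondrocyte-only peaks, 21.1 per Mb (interval 17.2 to 25.7). The 3 were 233 kb downstream of Sox9 (score 76.2, 0.501 kb from a chondrocyte peak), near Epyc (68.5) and near Runx3 (51.5). For AP-1 and TEAD genes 2 peaks were found, near Tead1 (103) and Jun (56.0), and chondrocyte-only and shared peaks stood at 16.2 and 13.6 per Mb.

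Lists for other cells of skin had few peaks by count. Per Mb, endothelial (2.60) and adipocyte genes (2.08) stood above mesenchymal transcription factors (1.21) and fibroblast surface genes (1.80). Keratinocyte (0.310) and skeletal muscle genes (0.931) stood below them. Keratinocyte genes had 1 (Itga6, 57.7), skeletal muscle genes 1 (Myog, 94.7) and adipocyte genes 2 (Lpl, 145, and Zfp423, 57.0). Endothelial genes had 6, 2.60 per Mb (interval 0.954 to 5.66), with 3 of them 307 to 363 kb upstream of Cdh5 and 1 each at Vwf, Tek and Erg. Melanocyte and Schwann cell genes had 7, 4 at Mitf and 3 at Dct, or 1.79 per Mb (interval 0.719 to 3.68), and the 3 nearest to Dct all lay in introns of Gpc6. The intervals of these 5 lists include the 0.995 of all genes.

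**Figure D5:**
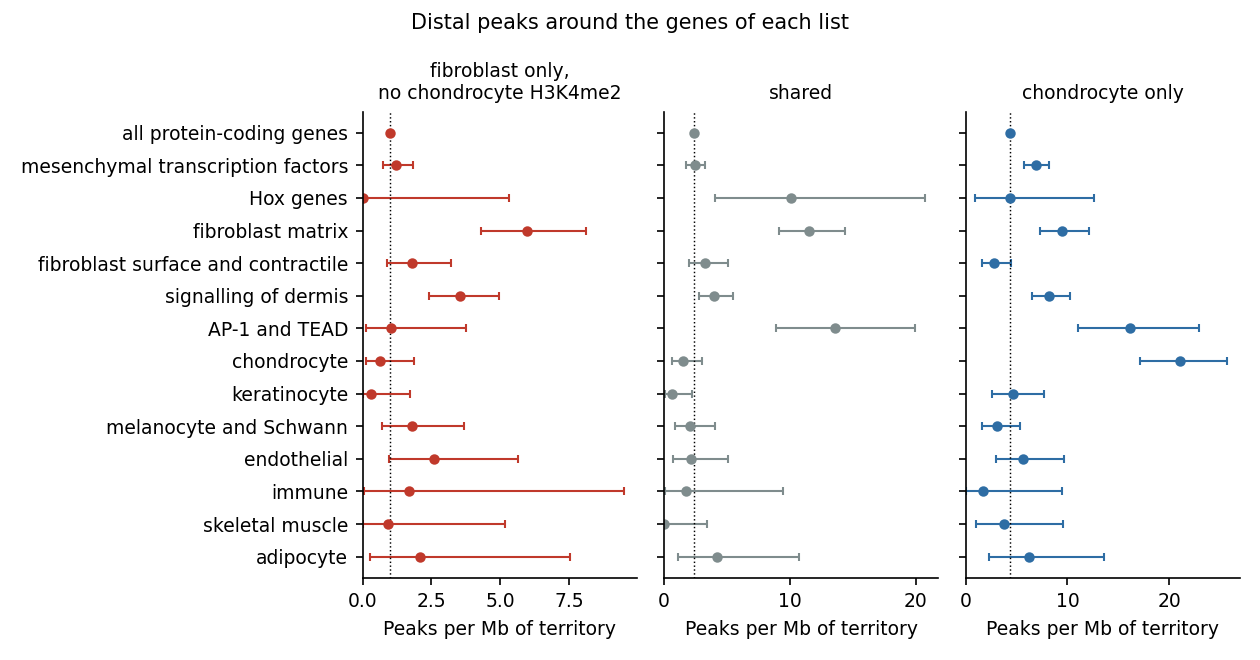
Number of fibroblast-only, shared and chondrocyte-only distal peaks per Mb of territory around the genes of 13 lists and around all protein-coding genes; points are densities, lines exact Poisson 95% intervals, and the dotted line is the density over all genes. Fibroblast matrix genes stand at 5.98 fibroblast-only peaks per Mb and chondrocyte genes at 0.633.

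Of the 1894 genes, 1064 (56.2%) had a fibroblast peak within 1 kb of the TSS, compared with 44.7% of all protein-coding genes, and 57.6% of the 3634 genes nearest to a shared peak. Chondrocyte replicate 2 marked 49.9% of those placed in both annotations, compared with 43.1% of all. A promoter peak in fibroblasts and none in the 3 mm9 chondrocyte H3K27ac lists was found at 82 genes (4.33%, interval 3.46% to 5.35%), compared with 1.68% of all genes and 1.98% of genes nearest to shared peaks. For genes nearest to H3K4me2-overlapping peaks the share was 3.28% (interval 2.35% to 4.44%), and the 2 intervals overlap. The count of 82 uses the same lists as the rule and is given as a description. Replicate 2 marked 4 of 72 of the promoters behind that count that were placed in both annotations.

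The base content of the peaks was read in 300 bp around the midpoint, so that equal lengths were compared. This window takes in more of a narrow peak than of a wide one, and runs past the ends of peaks under 300 bp. The median G and C content was 46.3% (interval 46.0% to 46.7%), below the 49.0% of H3K4me2-overlapping and 50.7% of shared peaks and above the 43.7% of chondrocyte-only peaks. At least 1 CpG was present in 88.6% of the windows, compared with 96.2% of shared windows. Within the fibroblast-only peaks G and C content varied little with score, at 47.0% (interval 46.3% to 47.7%) in the highest of the 4 bins and 46% (interval 45.3% to 46.7%) in the lowest.

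The 16 motifs were searched on both strands. They were the AP-1 motif TGANTCA, the CRE motif TGACGTCA, the TEAD motif CATTCC, the homeodomain motif TAATTA and the Runx motif TGTGGT. Further ones were the Sox motif ACAAAG, the NFI single site TTGGCA, the EBF motif TCCCNNGGG, the C/EBP motif TTGCGCAA and the T-box motif AGGTGTGA. The ETS motif CCGGAAGT, the forkhead motif GTAAACA and the CTCF part AGGGGGC were also included. The E-boxes searched were the form CATATG, the form CAGCTG and the form CACCTG. Matches of neighbouring motifs may overlap. Compared with shared peaks, the interval of the difference left out 0 for 8 of the 16, of which 4 were higher (CATATG, homeodomain, Runx and Sox) and 4 lower (CRE, EBF, ETS and the CTCF part) in fibroblast-only peaks. Compared with H3K4me2-overlapping peaks it did so for 3 (CATATG higher, EBF and the CTCF part lower). Fibroblast-only windows had less G and C than shared ones, with medians of 46.3% and 50.7%. The Runx, Sox, CRE and ETS motifs were not compared within bins of G and C content. Whether their differences from shared peaks go beyond base content was not tested. A match is a description of letters and no evidence of binding.

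CATATG, an E-box bound by basic helix-loop-helix factors, was found in 6.94% of fibroblast-only windows, compared with 4.77% of all distal fibroblast windows, 4.79% of H3K4me2-overlapping and 3.84% of shared ones. The difference from shared windows was 3.10 points (Newcombe interval 2.05 to 4.25), and from chondrocyte-only windows, at 6.09%, it was 0.846 points (interval -0.182 to 1.98). Since CATATG is itself AT-rich, the distal fibroblast windows were split into 5 bins of equal size by G and C content, and the share was higher in fibroblast-only than in shared windows in 5 of 5 bins. In the most AT-rich bin it was 10.3% against 7.14%, and in the most GC-rich 1.72% against 1.24%. The intervals of these classes overlapped in every bin, with 8.24% to 12.7% and 5.61% to 8.94% in the most AT-rich. Over whole peaks, which are wider when shared, the order turned, at 14.6% for fibroblast-only and 15.8% for shared peaks. Compared with H3K4me2-overlapping windows, numbered from the most AT-rich, the share was higher in bins 1 to 3 (10.3% against 6.54% in bin 1). It was lower in bins 4 (4.78% against 5.63%) and 5.

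EBF motifs were rarer in fibroblast-only than in shared windows, at 5.07% and 7.62%, and so was the CTCF part, at 3.08% and 6.34%. Each was higher in fibroblast-only windows in 1 of the 5 bins of G and C content. The intervals of these classes overlapped in every bin for EBF and for the CTCF part. EBF shares were 5.30% against 5.37% in bin 3 and 9.09% against 8.08% in bin 4. In bin 5 the intervals for the CTCF part were 3.61% to 11.7% and 11.4% to 14.7%. Compared with chondrocyte-only windows, at 3.51%, EBF motifs were 1.56 points more frequent (interval 0.701 to 2.54). The AP-1 motif differed little between classes, at 13.3%, 13.4%, 13.2% and 13.1% for fibroblast-only, H3K4me2-overlapping, shared and chondrocyte-only windows, and the difference from shared windows was 0.109 points (interval -1.43 to 1.71). Among the 174 fibroblast-only peaks in the upper 50% of the list the AP-1 motif was found in 34 (19.5%, interval 13.9% to 26.2%). It was found in 12.8% of the shared peaks there. TAATTA was found in 6.63%, above the 4.83% of shared and below the 9.18% of chondrocyte-only windows, and it was higher than in shared windows in 2 of the 5 bins of G and C content. CAGCTG was 4.03 points higher than in chondrocyte-only windows (interval 2.41 to 5.73).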

How the data were processed

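H3K27ac and H3K4me2 ChIP-seq peak lists were used, each from 1 library. The deposited values are peak scores: the authors' peak caller gave 1 score per peak, and per the labels' processing notes the tools included fastp, Bowtie2 2.4.4 and MACS2 2.2.4. The fibroblast, replicate 1 and H3K4me2 lists start at a score of 50 and the WT and deletion lists at 20, so scores were compared only within a list. Read counts and depth are not given in the sources used here. No score was tested, since the fibroblasts had 1 library. Per the study's methods input reads were the control. The input sample in the labels is from rib chondrocytes, and whether the fibroblast peaks were called against it is not given in the sources used here.

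All positions are mm9 except those of chondrocyte replicate 2, which are GRCm38. Overlap was 1 shared base, and distances ran from peak midpoints. Intervals are 95%: exact binomial for shares, order statistics for medians, exact Poisson for densities and Newcombe for differences. Overlaps were computed in numpy 2.4.6 and checked against bedtools 2.31.1 on the deposited peaks. Intervals were taken with scipy 1.17.1, sequences with pysam 0.24.0, tables with pandas 2.3.3 and plots with matplotlib 3.10.9, in Python 3.11.15, and the scripts were tested on simulated data. Alternatives changed the overlap, TSS window, annotation, score limits, lists, group gap, replicate 2 tolerance, promoter window and sequence window. The genes named were those of the 10 highest-scoring peaks, of the peaks at the thresholds, of the 8 groups with most peaks, those nearest to at least 4 peaks (in full at 5 or more), and at most 4 per gene list. A sequence and the peaks of 1 gene list are not reported here. The members and lists were chosen with earlier results of these data known.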

Additional observations from a re-analysis of the deposited data

How the results depend on the processing

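The number of fibroblast-only distal peaks was 174 within the higher-scoring 50% of the fibroblast list, 4884 with 50% reciprocal overlap, 4233 against the higher-scoring 50% of each chondrocyte list and 4047 without the H3K4me2 list. Other planned settings gave 2219 to 2814. The median rank was 78.4% with reciprocal overlap and 67.9% among distal peaks, and the median distance was 31.8 kb to the TSS of any annotated gene. The share in groups was 17.3% at a gap of 20 kb, 44.9% at 100 kb, 44.9% with reciprocal overlap and 4.60% in the higher-scoring 50%. The share with a fibroblast-only nearest neighbour, in alternatives chosen after seeing the data, was 10.3% in the higher-scoring 50% (interval 6.25% to 15.9%, which holds the 6.52% of distal peaks there) and 34.1% for peaks clear of others by 1 kb. Replicate 2 matched 2.05% at a tolerance of 2 kb and 0.311% in the higher-scoring 50% of replicate 2. Marked promoters were 59.1% with a 2 kb window and 44.4% in the higher-scoring 50%, where all genes stood at 35.9%. G and C content was 45.8% over whole peaks and 47.7% in the higher-scoring 50%. Of 36 matrix genes, 3 kept a peak in the higher-scoring 50%. Without chondrocyte replicate 1 the number was 2636, the fibroblast library had no replicate to leave out, and no depth was known. No paired analysis was possible because the fibroblasts had 1 library. The cause of these shifts was not tested.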

Other observations

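Of the 2565 fibroblast-only peaks, 8 (0.312%) had more than 50% of their 50-base windows repeated elsewhere in mm9, compared with 74 (0.660%) of the chondrocyte-only peaks. In 5 of the 8, nearest to Tagap, Fndc1, 9930023K05Rik, Dclre1a and Disc1, every window was repeated with a median of 2 copies. Without the 8, an alternative chosen after seeing the data, 2557 peaks were left.

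The fibroblast-only share of distal fibroblast peaks differed between chromosomes, from 21.7% on chromosome 17 to 31.0% on chromosome 14. On chromosome X it was 27.8%.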
